A study of Mus musculus with 6 samples.

Results

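A set of 10 genes linked to the early embryo or the germline were followed in mouse E14 cells, an embryonic stem cell line, during differentiation with retinoic acid. They are the Dppa genes Dppa2, Dppa3, Dppa4 and Dppa5a, the Pramel genes Pramel6 and Pramel7, and Fbxo15, Tdgf1, Stra8 and Prdm14. The 10 were taken by name, and each matched 1 of the 52636 gene identifiers in the count tables. RNA was sequenced from 3 libraries of wild-type cells and 3 libraries of cells that lack an enhancer cluster, a cluster that, by the series title, maintains HoxB activity in neural progenitor formation. All 6 libraries came from cells kept for 4 days in medium without LIF and without the MEK and GSK3 inhibitors, with retinoic acid at a labelled dose of 5 (the unit is written as µm). The wild-type libraries are therefore also retinoic acid treated, and the labels call the cells embryonic stem cells while the design text calls them NPC. How many knockout clones were used, and where the deletion lies, is not given in the sources used here.

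Most of these genes are active in germ cells, in the cleaving embryo or in naive pluripotent cells and are silenced as cells differentiate, many of them through DNA methylation. Dppa2 and Dppa4 encode related SAP-domain proteins that bind chromatin together and help to turn on genes of the 2-cell embryo. Prdm14 is a regulator of primordial germ cell fate and Stra8 is a retinoic acid induced gene needed for entry into meiosis. Fbxo15 is a well-known target of OCT4 and SOX2, and Tdgf1 encodes Cripto, a co-receptor for the growth factor NODAL.

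The libraries held 7780368 to 9472916 gene counts. Knockout replicate 1 stood apart, with 1.04% of counts on genes over ribosomal RNA repeats against 0.0726 to 0.118% in the other libraries. Mitochondrial genes took 1.675 to 1.73% of counts in wild type and 2.583 to 2.891% in the knockout, and the part of this difference in the results was not tested. Markers were compared with the labels by their summed CPM (counts scaled to the library's total, with TMM factors). All 10 undifferentiated stem cell markers had counts, at 1223 to 1259 CPM in wild type and 945.4 to 966.9 CPM in the knockout. Of these, 6 fell, Klf4, Tfcp2l1 and Pou5f1 rose, and Tbx3 did not pass. The 9 neural progenitor markers summed to 442 to 453.4 CPM and 167.3 to 171 CPM, with Fabp7 at 0 in every library. Of the 7 tested, Nes and Cdh2 fell, from 231.4 to 33.6 and from 142.9 to 49.6 CPM, Pax6 and Msi1 rose by 1.16 and 0.34 on the log2 scale, and Ncam1, Zfp521 and Sox1 did not pass. The 8 trophoblast markers summed to 132.8 to 137.9 CPM in wild type and 85.4 to 92.6 CPM in the knockout, and the 7 markers of 2-cell-like cells to 32.1 to 37.0 CPM and 54.1 to 66.3 CPM. The 12 extraembryonic endoderm markers summed to 2597 to 2631 CPM in wild type and 7740 to 7840 CPM in the knockout. Lama1 and Lamb1 held most of this, at 932.9 and 875.1 CPM in wild type and 2811 and 2900 CPM in the knockout. Of the 12, 10 rose, Sox17 fell from 32.0 to 20.4 CPM and Ttr did not pass. The 9 germ cell markers summed to 202.1 to 209.6 CPM and 233.6 to 245.5 CPM, of which Nanos3 had 2 counts or fewer in each library, while Ddx4 stood at 64.3 ± 3.00 CPM in wild type. Of the 8 tested, Kit (47.0 to 75.55 CPM), Sycp3 and Tfap2c rose and Prdm1 fell. Ddx4, Dazl, Dmrt1 and Dnd1 did not pass. The part of these markers in the results below was not tested. In bulk RNA, fewer cells of a type and less RNA per cell cannot be told apart.

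Pramel7, Fbxo15 and Stra8 rose in the knockout, Tdgf1, Prdm14 and Dppa2 fell, and Dppa4 and Dppa5a did not pass the test. Dppa3 and Pramel6 had too few counts to be tested. Changes were wide in size, from a fold of 14.6 upwards for Pramel7 to a fold of 8.15 downwards for Tdgf1. Thus 6 of the 8 tested genes changed (edgeR's quasi-likelihood test, Benjamini-Hochberg adjusted p under 0.05). Over all 15816 genes tested 68.6% changed, 34.5% higher and 34% lower, so the share among these genes lies near that of the background. By limma-voom and with a replicate block the share over all genes was 68.7% each (34.6% higher with the block), and by DESeq2 it was 50.9%, with 25.6% lower. Changes of at least 1 on the log2 scale were called in 21% of all tested genes and in 6 of these 8. Their median log2 fold change was -0.072, beside 0.0091 for all genes. In 7 of the 8, both groups of 3 libraries were fully apart, against 70.9% of all tested genes.

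**Figure D1:**
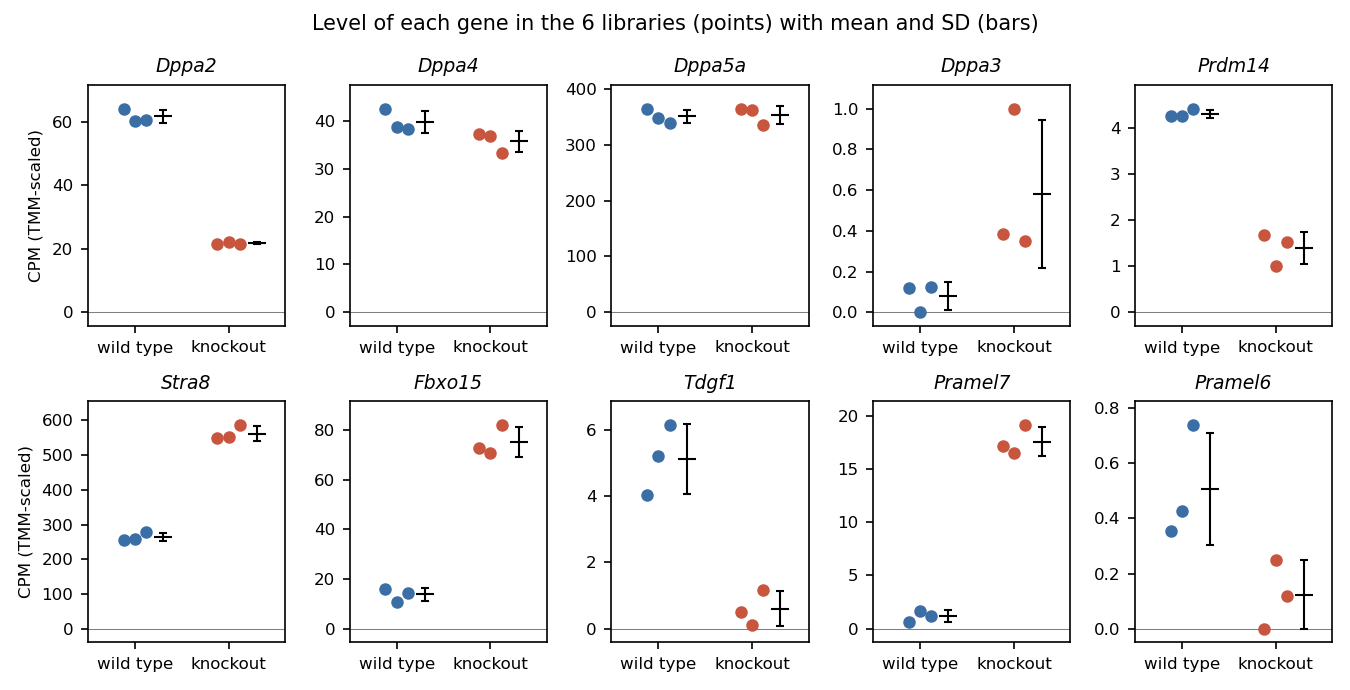
CPM after TMM scaling (y axis, linear, a separate scale for each gene) in each wild-type and knockout library (points, 3 per group), with mean and SD (bars). The knockout bar of Pramel6 reaches just below 0. Dppa5a overlaps between the groups at 335.6 to 364.6 CPM, whereas Pramel7 lies at 0.591 to 1.702 CPM in wild type and 16.47 to 19.09 CPM in the knockout.

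**Figure D2:**
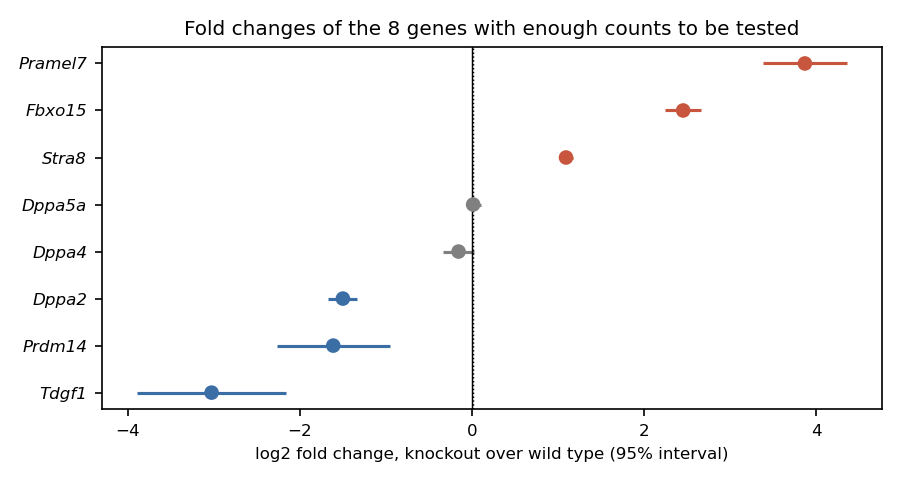
Log2 fold change of knockout over wild type (x axis) with its 95% interval for the 8 genes tested, red where higher, blue where lower and grey where the test was not passed; the dotted line is the median of all genes. Intervals of Dppa4 and Dppa5a cross 0, and those of the other 6 do not.

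The Dppa2 and Dppa4 genes lie side by side on chromosome 16 (GRCm38, plus strand), Dppa4 at 48283733 to 48294237 and Dppa2 at 48303908 to 48319723, with 9670 bases between them. Dppa2 stood at 64.1, 60.4 and 60.7 CPM in the wild-type libraries and 21.6, 22.2 and 21.6 CPM in those of the knockout. The groups are far apart and each is tight. Dppa2 fell by 1.501 in log2 units (SE 0.082, 3 libraries in each group, adjusted p by edgeR 1.16e-14), a 2.83-fold drop. Dppa4 stood at 42.6, 38.8 and 38.3 CPM in the wild-type libraries and 37.2, 36.9 and 33.3 CPM in those of the knockout. Every knockout library was below every wild-type library, but by little. Its log2 fold change was -0.16 (95% interval -0.33 to 0.020, adjusted p by edgeR 0.108).

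The 2 neighbours therefore differed in how much they moved. Within each library, the log2 ratio of Dppa2 to Dppa4 counts was 0.59, 0.64 and 0.67 in wild type, whereas the knockout libraries gave -0.78, -0.73 and -0.62. Dppa2 was the more counted of the pair in every wild-type library and the less counted in every knockout library. The ratio differed by -1.34 between the groups, with an exact two-sided permutation p of 0.1, the smallest that 3 libraries against 3 can give (0.1 also after adjustment over the 2 pairs compared). Copies elsewhere in the genome limit both counts: 23.9% of the 100-base stretches of Dppa2 transcripts and 14% of those of Dppa4 also occur in transcripts of other genes, and of the 50-base stretches 29.1% and 31.3%. Which applies depends on the read length, which is not given in the sources used here. Reads aligned to more than 1 place were left out by the authors' counting.

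**Figure D3:**
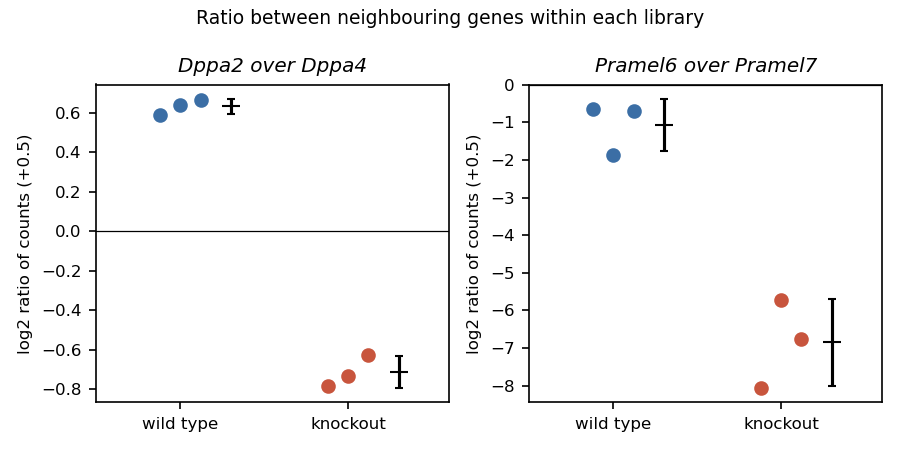
Log2 ratio of counts plus 0.5 (y axis) of Dppa2 to Dppa4 and of Pramel6 to Pramel7 within each library (points), with mean and SD (bars, 3 libraries per group). The Dppa2 to Dppa4 ratio is above 0 in wild type and below 0 in the knockout, and the Pramel6 to Pramel7 ratio is lower in every knockout library.

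Genes of the 2-cell-like state, which DPPA2 and DPPA4 are known to help switch on, were higher in the knockout, where Dppa2 was lower. A link between these changes was not tested. Of 25 genes of that state, 19 were tested. Tdpoz3, Tdpoz4 and Tcstv3 reached the count filter only through their knockout libraries. Of the 19, 18 rose (34.5% over all genes tested), 0 fell and 1 did not pass, with a median log2 fold change of 1.06. At an unadjusted p under 0.05, 0 were lower, and DESeq2 also called 0 lower. Zscan4d, a telomere-linked marker of that state, went from 15.49, 14.68 and 17.55 CPM to 24.74, 26.83 and 30.45 CPM, a rise of 0.79 (SE 0.12, adjusted p by edgeR 2.02e-06). Gm8300 rose by 1.59 (SE 0.16), Gm5662 by 1.29 (SE 0.17) and Usp17le, of a deubiquitinase family, by 1.14 (SE 0.16). These genes belong to families with similar copies, and reads aligned to more than 1 place were left out. How much sequence they share with their copies was not measured. Levels stayed low, with 27.3 ± 2.89 CPM for Zscan4d. Duxf3, the transcription factor gene at the top of this programme, had 0 counts in all 6 libraries. Since only reads aligned to 1 place were counted, this 0 does not show that Duxf3 was silent. A partly overlapping list of DPPA2- and DPPA4-linked genes was counted without the members of the set followed here. Of its 10 tested genes, 7 rose and 0 fell (median 0.77). At an unadjusted p under 0.05 and by DESeq2, 0 of those counted were lower. Of the members left out of this list, Prdm14 fell by 1.61 (SE 0.32), and Dppa2 and Dppa4 are given above. Zscan4c, Zscan4d, Zscan4f, Tcstv3 and Zfp352 are in both lists, and all rose. In the rest, given in full, Ctcfl, a germline relative of CTCF, rose by 0.88 (SE 0.25) and Mael by 0.32 (SE 0.11). Syce1, Dazl and Slc25a31 did not pass. Without wild-type replicate 3, 4 of the 10 linked genes passed.

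Dppa5a, an RNA-binding KH-domain gene of pluripotent cells, had the highest level of the 10 per kilobase of exon and did not pass the test. It is on chromosome 9 (78367052 to 78368177, minus strand). It stood at 364.3, 349.1 and 339.7 CPM in the wild-type libraries and 364.6, 362.5 and 335.6 CPM in those of the knockout. The groups overlap. The log2 fold change was 0.013 (95% interval -0.074 to 0.099, adjusted p by edgeR 0.798), which is a fold interval of 0.950 to 1.07. Of its 100-base stretches 3.08% are shared with other genes, of its 50-base stretches 38.6%, and its copies Dppa5b and Dppa5c had 0 and at most 17 counts in any library.

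Dppa3, also called Stella, protects the methylation of the maternal genome and marks primordial germ cells and naive pluripotency. On chromosome 6 (122626410 to 122630272), it had 1, 0 and 1 counts in the wild-type group and, in the knockout group, 3, 8 and 3. It is near the limit of detection in every library. Summed over groups the ratio of knockout to wild type was 7.49, with a 95% exact binomial interval of 1.72 to 67.85 that covers counting error only. With no filter on low counts, where 40.7% of 28062 genes passed, Dppa3 passed edgeR's test (adjusted p 0.0474), and by DESeq2 it did not (0.0792). Its neighbours Nanog, a core pluripotency factor 77216 bases away, and Gdf3, a TGF-beta family ligand 16322 bases away, both fell. Nanog stood at 161.2, 161.9 and 168.2 CPM in the wild-type libraries and 31.82, 32.07 and 34.55 CPM in those of the knockout, and fell by 2.32 (SE 0.054). Gdf3 fell by 2.23 (SE 0.24), from 9.70 ± 0.412 to 2.08 ± 0.718 CPM.

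Prdm14, on chromosome 1 (13113457 to 13127163, minus strand), was low in all libraries and lower in the knockout. It had 36, 40 and 36 counts in the wild-type group and, in the knockout group, 13, 8 and 13, or 4.26, 4.25 and 4.42 against 1.675, 0.998 and 1.52 CPM. The groups do not overlap. It fell by 1.61 (SE 0.32, adjusted p by edgeR 8.16e-05). Genes for partners and targets of PRDM14, and the enzymes that write or remove DNA methylation, moved both ways: 7 of 17 rose, 6 fell and the median was 0.039. Dnmt3l, a cofactor of the de novo methyltransferases, rose by 1.21 (SE 0.043) from 118 ± 1.58 to 272.6 ± 4.73 CPM, and Fgfr2, an FGF receptor, rose by 0.95 (SE 0.050). Uhrf1, which recruits DNMT1 to newly copied DNA, fell by 0.72 (SE 0.043), and Ehmt2, the histone methyltransferase G9a, rose by 0.80 (SE 0.044).

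Other genes of primordial germ cell specification were also mixed. Of 11 tested, 6 rose, 3 fell and 2 did not pass, with a median of 0.12. The number that rose was 3 by DESeq2, without wild-type replicate 1 and without wild-type replicate 3. Prdm1, encoding BLIMP1, the repressor that works beside PRDM14, stood at 5.56, 2.23 and 5.77 CPM in the wild-type libraries and 0.258, 0.998 and 0.586 CPM in those of the knockout, and fell by 2.83 (SE 0.45). Bmp4, the signal that induces germ cells in the embryo, fell by 2.097 (SE 0.11) from 55.9 ± 3.197 to 13.0 ± 2.03 CPM. In contrast Kit, the receptor of migrating germ cells, rose by 0.68 (SE 0.073), and Lin28a, an inhibitor of let-7 maturation, rose by 0.25 (SE 0.039).

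Stra8 came next to Dppa5a in level per kilobase of exon and rose in the knockout. It lies on chromosome 6 (34920163 to 34939344, plus strand). The stretch before its RefSeq start (GRCm38.p6, chr6:34920698-34920947, plus strand), which falls inside the longer GENCODE span of the gene, is shown because retinoic acid, given to every library, acts through nuclear receptors that bind copies of AGGTCA, set here in capitals.
Stra8: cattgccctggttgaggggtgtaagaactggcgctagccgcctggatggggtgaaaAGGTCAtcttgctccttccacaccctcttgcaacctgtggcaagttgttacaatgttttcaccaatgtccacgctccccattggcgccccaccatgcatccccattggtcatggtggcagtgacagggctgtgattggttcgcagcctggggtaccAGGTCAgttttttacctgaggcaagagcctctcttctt

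Searched on both strands, these 250 bases hold 2 copies of AGGTCA, both on the gene's own strand, at -194 to -189 and at -38 to -33 from the start. At least 1 copy is found in 14% of the 32851 RefSeq windows of the same length, and 2 or more in 1.36%. Windows of Pramel6, Pramel7 and Tdgf1, the other members searched, hold none. Fbxo15 was left out of the search by its chromosome. The Pramel7 window, like that of Stra8, falls inside the gene's longer GENCODE span. None of the 4 windows holds CACGTG (an E-box), CTTTGAT (a TCF and LEF core), ATTTGCAT (a POU octamer) or TTCCNNGAA (a STAT palindrome). A match is a description of the letters and not a measured site.

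Stra8 stood at 256.9, 257.1 and 277.3 CPM in the wild-type libraries and 548, 552.9 and 585.6 CPM in those of the knockout. Every knockout library was far above every wild-type library. It rose by 1.09 (SE 0.041, adjusted p by edgeR 4.03e-18), a 2.13-fold change with a 95% interval of 2.01 to 2.26. Other genes of the retinoic acid response did not move as 1 group. Of 19 tested, 10 rose and 9 fell, with a median of 0.16. Crabp1, whose product binds retinoic acid in the cytoplasm, rose by 2.60 (SE 0.13) from 7.88 ± 1.88 to 47.6 ± 1.34 CPM, and Crabp2, its relative that carries retinoic acid to the nucleus, rose by 0.80 (SE 0.050). The receptor gene Rarg fell by 1.47 (SE 0.076) and Bhlhe40, also known as Stra13, fell by 1.51 (SE 0.078).

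Germ cell genes that act later, in meiosis and in transposon control, rose more often than they fell. Of 34 tested, 18 rose, 4 fell and 12 did not pass, with a median of 0.29. Rec8, the meiotic cohesin subunit, stood at 75.0, 75.5 and 76.2 CPM in the wild-type libraries and 152.7, 157.1 and 152.4 CPM in those of the knockout, a rise by 1.03 (SE 0.046). Sycp2, of the synaptonemal complex that pairs chromosomes, rose by 1.68 (SE 0.14) from 7.16 ± 0.282 to 23.0 ± 1.54 CPM. Tex19.1, a germline and placental regulator of transposons, went the other way and fell by 1.78 (SE 0.16). Chosen after their values were seen, the germ cell markers Ddx4 and Dazl stood at log2 fold changes of 0.046 and -0.13 and did not pass. Gm4969, the gene of MEIOSIN, the partner of STRA8 and likewise chosen afterwards, had 18, 22 and 23 counts in the wild-type group and, in the knockout group, 13, 10 and 27, with overlapping groups.

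Fbxo15 encodes an F-box protein, the substrate-binding part of an SCF ubiquitin ligase, and lies on chromosome 18 (84934782 to 84981473, plus strand). It stood at 15.96, 10.95 and 14.48 CPM in the wild-type libraries and 72.9, 70.6 and 81.9 CPM in those of the knockout. Every knockout library lay far above the highest wild-type library. Fbxo15 rose by 2.45 (SE 0.10, adjusted p by edgeR 5.13e-17), a fold of 5.48 with a 95% interval of 4.725 to 6.35. Its neighbours did not share the rise: Timm21, whose span overlaps it without shared exons, was at -0.21 and did not pass, and Cyb5a, 54910 bases away, fell by 0.37 (SE 0.093).

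Other targets of OCT4 and SOX2 mostly went down. Of 14 tested, 4 rose, 9 fell and 1 did not pass, with a median of -1.22. Besides Nanog, Zfp42 (the REX1 gene) fell by 1.55 (SE 0.063), Sox2 itself fell by 1.49 (SE 0.076) and Esrrb, a nuclear receptor of naive cells, went from 111.4 ± 6.75 to 49.2 ± 1.31 CPM. Pou5f1, encoding OCT4 and chosen after its values were seen, was at 184 ± 5.36 CPM in wild type and 200.6 ± 14.9 CPM in the knockout. It passed the test with a rise by 0.12 (SE 0.049, adjusted p by edgeR 0.0294), with overlapping groups. The direction of Fbxo15 was thus opposite to that of Sox2 and Nanog in the same libraries.

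Tdgf1 lies on chromosome 9 (110939603 to 110946158, minus strand) and was nearly lost in the knockout. It had 34, 49 and 50 counts in the wild-type group and, in the knockout group, 4, 1 and 10, or 4.02, 5.21 and 6.135 against 0.515, 0.125 and 1.17 CPM. The groups do not overlap, and the knockout libraries vary among themselves. Tdgf1 fell by 3.03 (SE 0.42, adjusted p by edgeR 5.47e-07), with a 95% interval of -3.89 to -2.16. Without knockout replicate 3 the log2 fold change was -3.95, and without knockout replicate 2 it was -2.56. Of the 100-base stretches of Tdgf1 transcripts 3.17% also occur in transcripts of other genes, of the 50-base stretches 8.86%, and the pseudogene Tdgf1-ps1 had at most 4 counts in any library.

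Tdgf1 fell together with Nodal, Gdf3 and Lefty1, while receptor genes of the pathway rose. Of the 16 other pathway genes tested, 6 rose, 6 fell and 4 did not pass, with a median of -0.0098. Nodal stood at 26.25, 24.67 and 23.56 CPM in the wild-type libraries and 8.50, 9.48 and 6.68 CPM in those of the knockout, and fell by 1.598 (SE 0.14). Lefty1, a NODAL antagonist and target, fell by 2.67 (SE 0.28), Gdf3 as given above, and Furin, a protease that matures NODAL, by 0.74 (SE 0.062). Among the receptors, chosen after their values were seen, Acvr1b rose by 0.46 (SE 0.068), Acvr2b by 0.52 (SE 0.10) and Acvr2a by 0.33 (SE 0.072), and Acvr1c was not tested. Cfc1, encoding Cryptic, a relative of Cripto, and likewise chosen afterwards, had 5, 1 and 5 counts in the wild-type group and, in the knockout group, 14, 11 and 24, which is a rise by 2.202 (SE 0.53).

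Pramel7 and Pramel6 lie head to head on chromosome 2, Pramel7 at 87489087 to 87497093 on the minus strand and Pramel6 at 87506565 to 87510872 on the plus strand, 9471 bases apart. Both encode leucine-rich repeat proteins of the PRAME family, and PRAMEL7 is known for promoting the breakdown of UHRF1 in naive pluripotent cells. Pramel7 had 5, 16 and 10 counts in the wild-type group and, in the knockout group, 133, 132 and 163, or 0.591, 1.702 and 1.23 against 17.13, 16.47 and 19.09 CPM. It went from near the detection limit to a moderate level in all 3 knockout libraries. Pramel7 rose by 3.87 (SE 0.23, adjusted p by edgeR 1.04e-13), a fold of 14.6 with a 95% interval of 10.4 to 20.4. Pramel6 had 3, 4 and 6 counts in the wild-type group and, in the knockout group, 0, 2 and 1, which was too few for the test. The summed ratio of wild type to knockout was 4.05, with a 95% exact binomial interval of 1.11 to 22.2 for counting error alone. With no filter, the adjusted p by edgeR was 0.16.

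The log2 ratio of Pramel6 to Pramel7 was -0.65, -1.87 and -0.69 in wild type, whereas the knockout libraries gave -8.06, -5.73 and -6.77. Every knockout ratio was below every wild-type ratio. The group means differed by -5.78, or by -6.34 to -5.175 when 1 library was left out, again with an exact permutation p of 0.1. With 0, 2 and 1 counts of Pramel6 in the knockout, the size of this difference depends on the 0.5 added to each count and is no bound. Of 12 other family genes, 6 had 0 counts in all libraries and only 2 were tested, Pramef12 (0.365, SE 0.10) and Pramef25 (1.10, SE 0.26), which both rose. Prame had 0 counts in each wild-type library and 6, 2 and 6 in the knockout. Pramef6, also untested, had 2, 3 and 0 counts in the wild-type group and, in the knockout group, 8, 8 and 14. In the other direction, the untested Pramef17 had 15, 11 and 7 counts in the wild-type group and, in the knockout group, 1, 1 and 2.

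Repressors of germline genes, among them the PCGF6, E2F6 and MGA complex and the DNA methyltransferases, were lower in 10 of 20 tested, higher in 4 and not past the test in 6, with a median of -0.12. The maintenance enzyme Dnmt1 fell by 0.70 (SE 0.043), Hdac1, a histone deacetylase, by 0.56 (SE 0.048) and Dnmt3b by 0.56 (SE 0.046). Ehmt2, which had the smallest adjusted p of the list, rose as given above. Chosen after their values were seen, E2f6 fell by 0.75 (SE 0.066) and Pcgf6 fell by 0.42 (SE 0.088), whereas Mga rose by 0.44 (SE 0.042) and the de novo methyltransferase gene Dnmt3a rose by 0.14 (SE 0.053). Leaving out either wild-type replicate 2 or knockout replicate 1 left 2 genes of the list that rose.

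**Figure D4:**
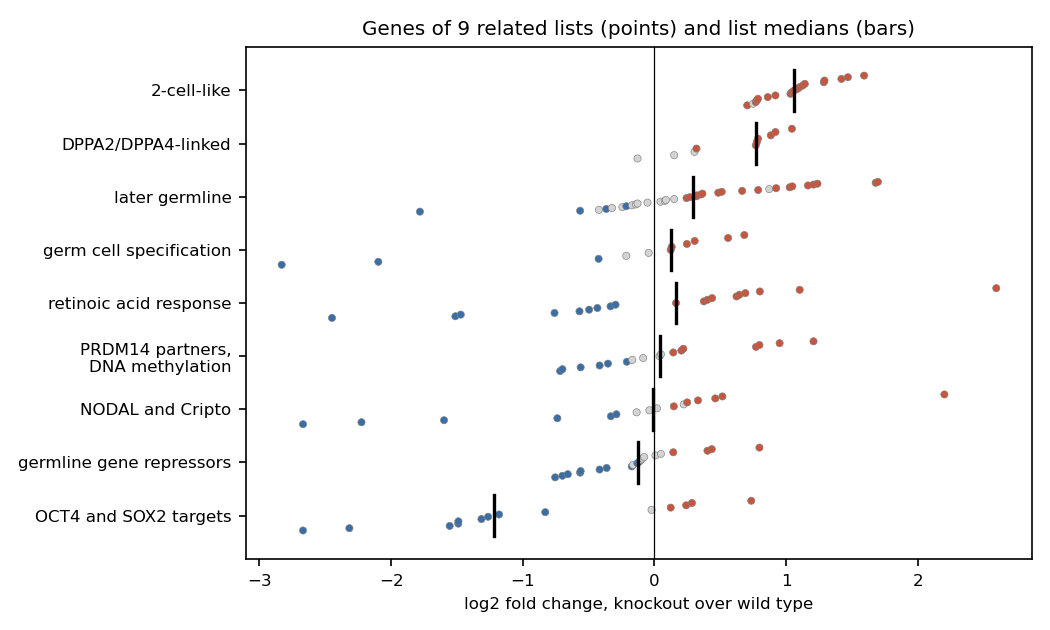
Log2 fold change of knockout over wild type (x axis) of each tested gene in 9 related lists, the 10 genes themselves left out (points, red where higher, blue where lower, grey where the test was not passed; bars are list medians). The 2-cell-like list lies to the right with a median of 1.06, and the OCT4 and SOX2 target list to the left with a median of -1.22.

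Genes around the 10 loci moved both ways. Of 43 other genes tested whose span lies within 200 kb, 18 rose, 12 fell and 13 did not pass, with a median of 0.16. Beside Dppa5a, Ooep, a gene of the oocyte's subcortical complex that lies 7931 bases away, fell by 1.14 (SE 0.17), as did Cgas, the cytosolic DNA sensor, by 1.55 (SE 0.24). Slc17a5, a lysosomal sialic acid transporter 168310 bases from Dppa5a, rose by 1.66 (SE 0.092). Near Stra8, Cald1, encoding caldesmon, fell by 2.02 (SE 0.037), from 847 ± 20.97 to 208.3 ± 6.92 CPM, while Wdr91, 9286 bases away, rose by 0.38 (SE 0.066). Around Tdgf1, which itself fell, every tested gene within 200 kb rose. Among them, on its left, were Als2cl by 0.65 (SE 0.088) and Myl3, a myosin light chain, by 1.27 (SE 0.22). Tmie, also among them, did not pass without wild-type replicate 3, knockout replicate 1 or knockout replicate 2. Beyond Dppa2, Morc1, a germline silencing gene, was at -0.16 and did not pass.

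Levels were compared between genes as CPM per kilobase of exon. In wild type Dppa5a was highest at 567.1 ± 20.1, above 99.6% of tested genes, and Stra8 followed at 146.3 ± 6.52. Dppa2 (25.2 ± 0.833) and Dppa4 (24.0 ± 1.41) overlapped between libraries and came next. Fbxo15 stood at 4.11 ± 0.766, below the median of 5.95 over tested genes. Tdgf1 (1.95 ± 0.404) and Prdm14 (1.68 ± 0.0364) overlapped, as did Pramel7 (0.550 ± 0.261) and Pramel6 (0.243 ± 0.0974), and Dppa3 was lowest at 0.09005 ± 0.0780.

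In the knockout the order of the first 2 was the same, with Stra8 at 311.8 ± 11.3 per kilobase. Fbxo15, at 22.4 ± 1.77, now overlapped Dppa4, at 21.55 ± 1.33. Dppa2 (8.91 ± 0.146) overlapped Pramel7 (8.23 ± 0.638), which in wild type lay far below it. Dppa3 (0.649 ± 0.408), Prdm14 (0.546 ± 0.138) and Tdgf1 (0.230 ± 0.202) overlapped between libraries, as did Tdgf1 and Pramel6 (0.05865 ± 0.0599). Each of the 6 calls was also made without knockout replicate 1, the library with more ribosomal RNA repeat counts, with log2 fold changes of 3.89 for Pramel7, 2.48 for Fbxo15, 1.11 for Stra8, -1.495 for Dppa2, -1.75 for Prdm14 and -2.92 for Tdgf1.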

How the data were processed

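RNA sequencing counts per gene were taken as the authors deposited them, 1 table per library, for 3 wild-type and 3 knockout libraries of 7780368 to 9472916 gene counts. Per the submitters' processing notes, HISAT2 2.1.0, HTSeq 0.9.1, DESeq2 1.18.1 and the mm10 build were used. The annotation release, read layout and strand setting are not given in the sources used here. Rows that name no gene (36.02 to 38.43% of tallied reads were assigned to genes) were left out. Genes were named from GENCODE M21 on GRCm38 (52489 of 52636 identifiers). Promoter windows came from RefSeq (GRCm38.p6) and were searched for 4 of the 10 genes, with Fbxo15 left out by its chromosome.

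The main test was the quasi-likelihood test of edgeR 4.0.16 in R 4.3.3, with filterByExpr (minimum count 10), TMM scaling and Benjamini-Hochberg adjustment over 15816 genes at 0.05. It was tested on simulated data, in which a far smaller share of genes changed than in these libraries. Positive log2 fold changes mean higher in the knockout, and ± is the SD of 3 libraries. Alternatives were RLE and upper-quartile scaling, 2 other filters, DESeq2 1.42.0, limma-voom (limma 3.58.1), a replicate block and leaving out each library. The 10 genes and the related lists were chosen with earlier results of these data known. Named genes were the 10, up to 4 of smallest adjusted p per list, and neighbours within 200 kb that were nearest or changed by at least 1 on the log2 scale. Not every such neighbour is printed above. Intervals on summed counts cover counting error only.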

Additional observations from a re-analysis of the deposited data

How the results depend on the processing

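All 13 alternatives kept the direction and the call of Dppa2, Dppa4, Fbxo15, Tdgf1, Pramel7, Stra8 and Prdm14. Dppa5a, which passed under none, changed sign under DESeq2 (-0.00044) and without wild-type replicate 3, knockout replicate 1 or knockout replicate 2, with a range of -0.018 to 0.050 over the libraries left out. Leaving out 1 library moved Tdgf1 between -3.95 and -2.56 and Pramel7 between 3.55 and 4.25. Of 741 values for the 57 other named genes, 730 kept their direction and call. Without wild-type replicate 1, Morc1 and Gm10420 changed in sign, and neither passed the test; over the libraries left out Morc1 lay between -0.41 and 0.12 and Gm10420 between -0.19 and 0.34. The DPPA2- and DPPA4-linked list had 4 to 7 changed genes when 1 library was left out, and the cause of the lower count without wild-type replicate 3 was not tested. With the replicate number as a block, 6 of the 8 genes and 10862 of all genes passed. Same-numbered libraries did not deviate together (correlations -0.0131 to 0.0133), so the numbers were not taken as pairs. With no filter 11424 genes passed and 7 of the 10 genes, Dppa3 being the addition. The Pramel6 to Pramel7 ratio could not be given without a pseudocount, since knockout replicate 1 had 0 counts of Pramel6. Depth limits Dppa3 and Pramel6, with 16 counts each over all 6 libraries.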
